A study of Saccharomyces cerevisiae with 2 samples.

Results

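The strains described here carry deletions of 43 genes for replication initiation and the replication fork in Saccharomyces cerevisiae, taken from a fixed list of names, out of 5325 named deletion strains on the arrays. All 43 were found among the features that the platform annotation names, each with both of its tags on both arrays. The arrays set a pool of haploid deletion strains with a GAL1-LCD1 plasmid, in which galactose drives LCD1 expression, beside a pool with a control plasmid. Both plasmids carried URA3 as the marker, and both pools came from the same collection of 5896 heterozygous diploid deletion strains that can be turned into haploids. Haploids were then selected for 3 days at 30 °C on plates whose carbon source was galactose alone, at 2%. Tags of the LCD1 pool were in the Cy3 channel and tags of the control pool in the Cy5 channel on both arrays, so dye and pool cannot be told apart. The titles number the arrays as experiment1 and experiment2, but whether the arrays stem from separate cultures is not in the labels. The error given here is thus the spread between these arrays, which may be technical.

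An origin of replication is bound by the origin recognition complex, on which Cdc6 and Tah11 (Cdt1) load the MCM helicase ring as an inactive double ring. The DDK kinase, Cdc7 with Dbf4, and cyclin-dependent kinase then turn the ring into a working helicase: Sld3 brings Cdc45, and Sld2 and Dpb11 bring the GINS complex. DNA polymerase alpha-primase, polymerases delta and epsilon, the clamp PCNA with its loader RFC, and the single-strand binding protein RPA then build the fork. Lcd1 (Ddc2) is the binding partner of the checkpoint kinase Mec1, which RPA-coated single-stranded DNA recruits, and Dpb11 and Dna2 are among the yeast proteins that activate this kinase. These replication genes are essential for growth, so their deletion haploids should be missing from both pools and their tags should read near background. The values below therefore compare tag signals and are not read here as growth. Signal over background is unknown for this table, so its part in the ratios was not tested.

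A tag value is the log2 ratio of LCD1 over control signal, averaged over the features of a gene in 1 tag block of 1 array and centred on the median of that block. A strain value is the mean of its first and second tag, and a strain mean is given ± SD over the 2 arrays (n = 2). The direction is the likely one. The strain without LCD1, which can grow only with the LCD1 plasmid, read 4.24 and 4.97 on the first tag and 1.01 and 0.30 on the second with this sign, and it was used to choose the sign. With the opposite sign every value below would turn over. The arrays held 20000 and 20032 values, and their number limits the precision.

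Most of the 43 strains read below the median strain, and the first tag carried this. The median of their strain means was -0.27 (quartiles -0.86 and 0.03), beside 0.04 for all 5325 strains, and 31 of the 43 lay below 0, beside 45.9% of all strains. On the first tag the medians were -1.06 on array 1 and -0.86 on array 2. On the second tag they were -0.04 and 0.03. For all strains each of these 4 medians is 0 by the centring. The first tag was at least 2-fold lower on both arrays in 15 of the 43 strains (34.9%), beside 5.07% of all strains, and at least 2-fold higher in 0, beside 1.84%. ORC2, at -1.15 and -1.00, lay at the edge of the 15. The second tag was at least 2-fold lower on both arrays in 1 strain, SLD3, beside 0.563% of all strains, and at least 2-fold higher in 1, DNA2, beside 1.5%.

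By the strain value, SLD3 and MCM3 were at least 2-fold lower on both arrays, 2 of 43 beside 1.82% of all strains, and 0 of 43 were at least 2-fold higher, beside 0.695%. SLD3 was the 1 strain of the 43 with every tag value at least 2-fold lower, beside 0.376% of all strains, and 0 had every value at least 2-fold higher, beside 0.15%. All 4 tag values were below 0 in 9 strains (ORC2, MCM3, CDC6, SLD3, PRI1, POL30, RFC5, RFA3 and CDC9), beside 16.4% of all strains, and above 0 in 2 (DPB11 and RFC1), beside 16.7%. A threshold of 1.5-fold on both arrays took 12 strains on the lower side, beside 4.34% of all strains, and 0 on the higher side, beside 3.87%. The arrays differed: on array 1 alone 13 strains were at least 2-fold lower, beside 3.47% of all strains, and 0 higher, beside 4.75%, while on array 2 alone 4 were lower, beside 2.82%, and 2 higher, PSF2 and RFC3, beside 2.57%.

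No member passed limma's moderated test over all strains after Benjamini-Hochberg adjustment. It called 0 of 43 lower and 0 higher, as it called 0% of all strains in either direction, and the lowest adjusted p among the members was 0.0941, for SLD3. At an unadjusted p under 0.05, limma gave 17 members lower, beside 10.8% of all strains, and 2 higher, RFC1 and DNA2, beside 11.6%. A limma fit of the 4 tag values with the array as a random block called 3 members lower, SLD3 (adjusted p 0.036), RFC5 (0.0248) and ORC2 (0.0416), beside 4.68% of all strains, and 0 higher, beside 4.39%. That fit estimated a correlation of -0.363 between the tags of an array and counts more values than there are arrays, so its p-values are too small.

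**Figure D1:**
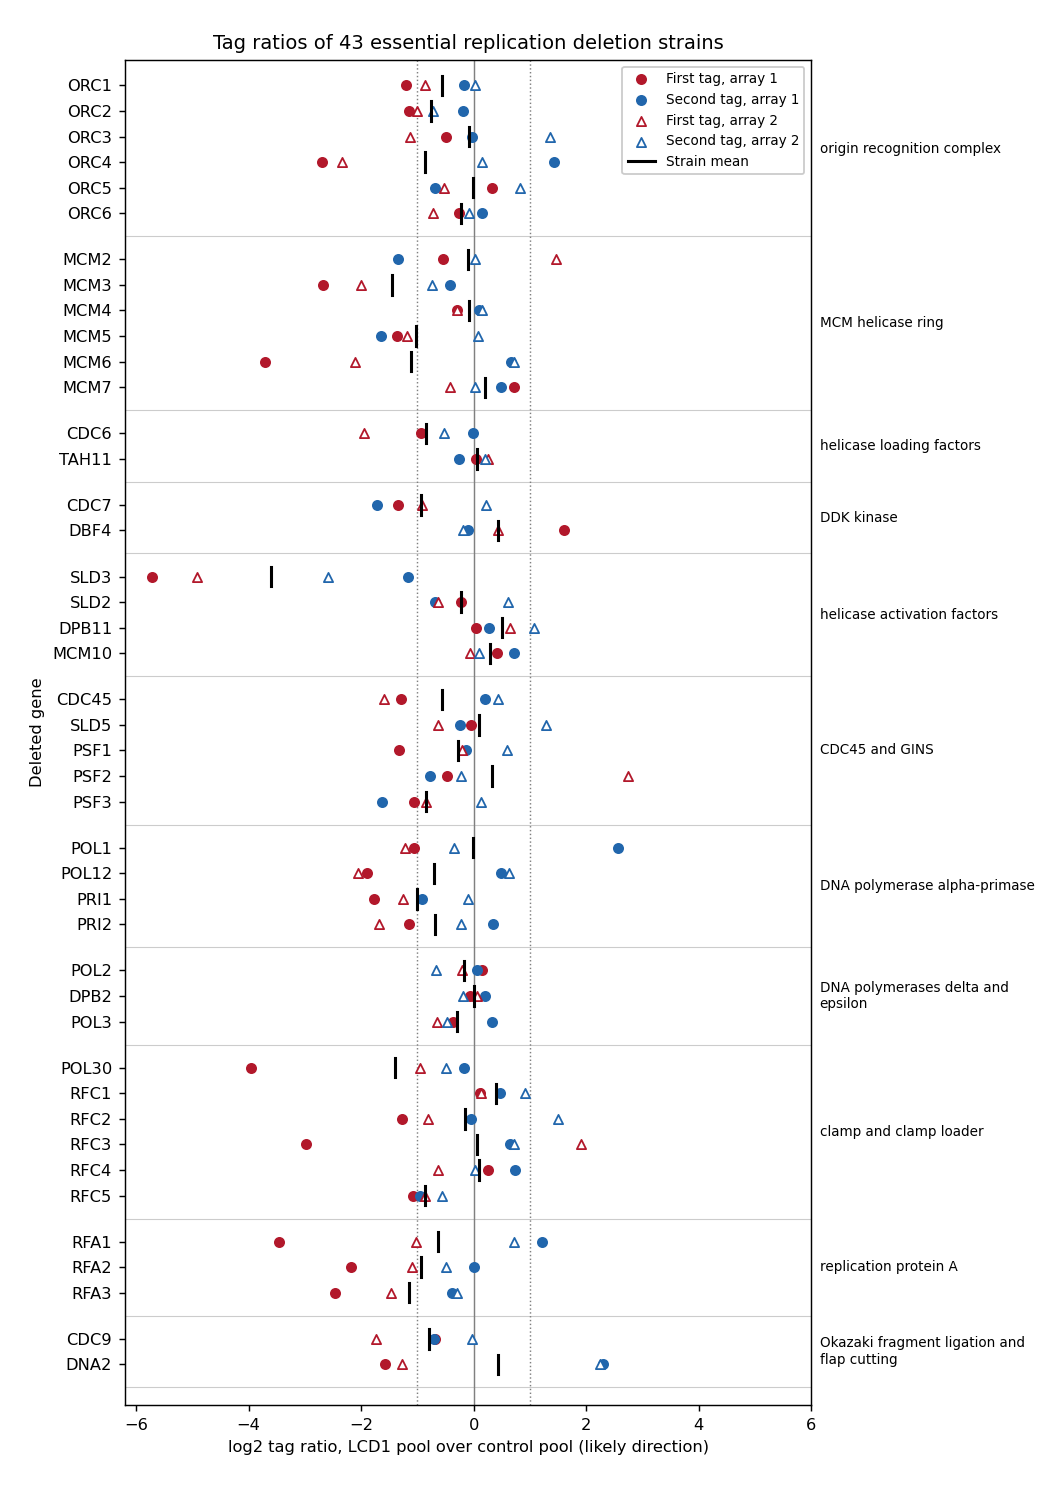
Each row is 1 of the 43 deletion strains, grouped by the role of the deleted gene; the x axis gives the log2 tag ratio, LCD1 over control, in its likely direction. Red symbols are the first tag and blue the second, filled circles array 1 and open triangles array 2, the black bar is the strain mean, and dotted lines mark 2-fold. SLD3 lies farthest left at a mean of -3.60, and in many strains the red symbols lie left of the blue ones.

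SLD3 (YGL113W), which encodes the factor that brings Cdc45 to the helicase, stood apart from the other 42 strains. On the first tag it read -5.72 on array 1 and -4.92 on array 2, and on the second tag -1.17 and -2.60. The strain values were -3.44 and -3.76, a mean of -3.60 ± 0.23. The first tag was the lowest of all strains on array 1 and ranked 8 from the bottom on array 2, and the second tag ranked 77 (tied down to 80) and 7. Both tags were low on both arrays, but they were unequal: the first tag minus the second was -4.55 on array 1 and -2.33 on array 2. The deposited ratios, control over LCD1 pool in the likely direction, were 49.5 and 28.5 for the first tag and 1.99 and 5.44 for the second. SLD3 was singled out with its value already known, so its distance from the other strains is a description with no test.

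Features numbered next to those of SLD3 on the array, 3 on each side, lay far from its values on the first tag. They ranged from -0.58 to 0.35 on array 1 and from -0.51 to 0.67 on array 2 for the first tag. For the second tag they ranged from -1.02 to 0.56 and from -0.54 to 0.10, and the lowest on array 1, NSA1 at -1.02, was close to the -1.17 of SLD3 there. Among them were the features of the strains without TAF6 and YGL114W, on either side of SLD3, whose first tags read -0.22 and 0.40 (TAF6) and -0.58 and -0.51 (YGL114W).

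The 15 activation partners of SLD3 (SLD2, DPB11, CDC45, the 4 GINS genes, the 6 MCM genes, CDC7 and DBF4) had a median strain mean of -0.23 and a range from -1.46 (MCM3) to 0.51 (DPB11). SLD3 minus that median was -3.37, and with the medians of each array it was -2.82 on array 1 and -3.69 on array 2. On the first tag the difference was -5.16 and -4.30, and on the second tag -0.92 and -2.75. On array 1 the second tags of CDC7 (-1.71), MCM5 (-1.65), PSF3 (-1.62) and MCM2 (-1.34) were lower than that of SLD3. On array 2 the lowest second tag among the partners was that of MCM3, at -0.75. The difference was larger on the first tag. Without the values whose deposited ratio lay outside 0.1 to 10, among them both first-tag values of SLD3, it was -1.77.

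**Figure D2:**
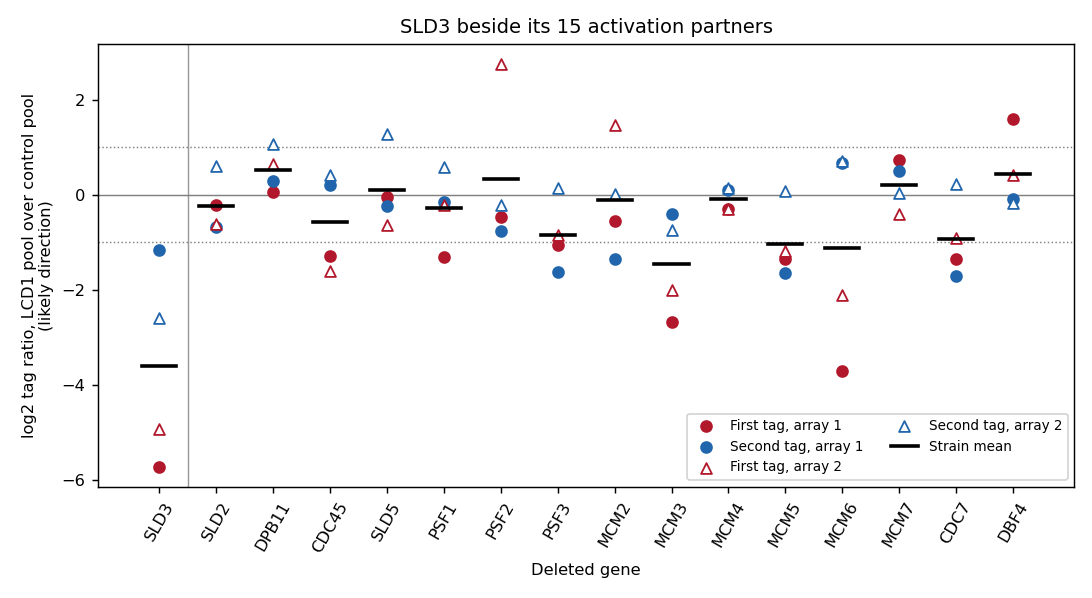
The y axis gives the log2 tag ratio, LCD1 over control, in its likely direction for SLD3, left of the vertical line, and its 15 activation partners. Red symbols are the first tag and blue the second, filled circles array 1 and open triangles array 2, black bars strain means, and dotted lines mark 2-fold. All 4 values of SLD3 lie below -1, and the lowest partner mean is that of MCM3 at -1.46.

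The strains nearest to SLD3 in the activation step did not share its level. SLD2, whose phosphorylated product binds Dpb11, read -0.22 and -0.63 on the first tag and -0.68 and 0.61 on the second, a mean of -0.23 ± 0.31. DPB11 had all 4 values above 0, at 0.05 and 0.65 on the first tag and 0.28 and 1.07 on the second, and its mean of 0.51 ± 0.49 was the highest of the 43. MCM10, which acts late in helicase activation, averaged 0.29 ± 0.38. CDC45, the factor that Sld3 recruits, read -1.29 and -1.60 on the first tag but 0.20 and 0.43 on the second, and its mean of -0.56 ± 0.03 had a small spread between the arrays while its tags had opposite signs. SLD7, a nonessential gene whose product binds Sld3, read -0.92 and -0.39 on the first tag and -1.43 and 0.21 on the second, a mean of -0.63 ± 0.77.

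The GINS genes, whose products join Cdc45 and the MCM ring in the active helicase, had strain means on both sides of 0. Their strain values on array 1 were all below 0, from -1.34 (PSF3) to -0.14 (SLD5). PSF3 had the lowest mean, -0.85 ± 0.70, with -1.06 and -0.84 on the first tag and -1.62 and 0.13 on the second. PSF2 had the highest mean, 0.32 ± 1.33, through a first tag of 2.75 on array 2, against -0.47 on array 1. Its second tag read -0.77 and -0.22. SLD5 read -0.04 and -0.64 on the first tag and -0.24 and 1.28 on the second, a mean of 0.09 ± 0.33. PSF1 read -1.32 and -0.21 on the first tag and -0.14 and 0.58 on the second, a mean of -0.27 ± 0.65. SLD5 and PSF1 both had strain values of opposite sign on the 2 arrays.

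Among the DDK genes, CDC7, the kinase, read -1.34 and -0.91 on the first tag and -1.71 and 0.23 on the second, a mean of -0.94 ± 0.84. DBF4, its regulatory subunit, read 1.60 and 0.43 on the first tag and -0.10 and -0.18 on the second, a mean of 0.44 ± 0.45. Their products form 1 kinase, and the strain values were -1.53 and -0.34 for CDC7 and 0.75 and 0.12 for DBF4.

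The 6 subunits of the MCM ring, the motor of the helicase, did not read alike, with strain means from -1.46 to 0.21. MCM3 was the second lowest of the 43 strains, with -2.68 and -2.00 on the first tag, -0.41 and -0.75 on the second and a mean of -1.46 ± 0.12. MCM6 read -3.72 and -2.11 on the first tag and 0.66 and 0.71 on the second, so that its tags had opposite signs on both arrays and its mean was -1.11 ± 0.59. MCM5 read -1.36 and -1.18 on the first tag and -1.65 and 0.08 on the second, a mean of -1.03 ± 0.67. On both arrays the first tags of all 3 were at least 2-fold lower, as were those of 5.07% of all strains.

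The other MCM strains lay near 0 on average. MCM4, a subunit whose tail DDK phosphorylates, had tag values from -0.30 to 0.15 and averaged -0.09 ± 0.02. MCM2 averaged -0.10 ± 1.19, with first-tag values of -0.55 and 1.47 on arrays 1 and 2 and second-tag values of -1.34 and 0.02. MCM7 had the highest mean of the ring at 0.21 ± 0.56, from 0.72 and -0.41 on the first tag and 0.49 and 0.03 on the second.

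Of the origin recognition complex, which marks origins throughout the cell cycle, all 6 strains had a mean below 0, beside 45.9% of all strains. By the strain value 0 of 6 were at least 2-fold lower on both arrays, beside 1.82% of all strains, and 0 higher, beside 0.695%. The lowest was ORC4, with a mean of -0.86 ± 0.32, whose first tag read -2.70 and -2.34 while the second read 1.43 and 0.15. ORC2 had all 4 values below 0, at -1.15 and -1.00 on the first tag and -0.19 and -0.73 on the second, a mean of -0.77 ± 0.14. ORC5 had the highest mean, -0.02 ± 0.23, from values of 0.33 and -0.53 on the first tag and -0.68 and 0.82 on the second. ORC1 (-0.56 ± 0.19), ORC6 (-0.23 ± 0.25) and ORC3 (-0.08 ± 0.27) lay between. Of the helicase loaders, CDC6 read -0.93 and -1.95 on the first tag and -0.0044 and -0.52 on the second, a mean of -0.85 ± 0.54. TAH11, which encodes its partner in loading, averaged 0.06 ± 0.24, with tag values from -0.26 to 0.25.

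The 4 strains without DNA polymerase alpha-primase subunits, which lay down the primers of each new strand, were all at least 2-fold lower on the first tag of both arrays. The same held for 5.07% of all strains and 25.5% of 110 essential strains with no part in replication. PRI1, the catalytic primase subunit, had the lowest mean, -1.01 ± 0.47, and read -1.77 and -1.26 on the first tag and -0.92 and -0.09 on the second. PRI2, the large primase subunit, read -1.16 and -1.69 on the first tag and 0.34 and -0.22 on the second. POL12, the regulatory subunit, read -1.90 and -2.06 on the first tag and 0.49 and 0.63 on the second, so its mean of -0.71 ± 0.0051 combined tags of opposite sign. POL1, the catalytic polymerase subunit, had the highest mean of the group at -0.02 ± 1.08, since its second tag read 2.56 on array 1 and -0.35 on array 2 while its first tag read -1.06 and -1.21.

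Of the strains without the main replicative polymerases, DPB2 lay close to 0, and POL2 and POL3 had lower means. DPB2, a polymerase epsilon subunit, averaged 0.0038 ± 0.099, with values from -0.19 to 0.20. POL2, the catalytic subunit of polymerase epsilon, averaged -0.16 ± 0.38, with strain values of 0.10 on array 1 and -0.43 on array 2. POL3, the catalytic subunit of polymerase delta, read -0.37 and -0.65 on the first tag and 0.32 and -0.47 on the second. Its mean was -0.29 ± 0.38, below the lower quartile of all strains, -0.20. The lowest value of these 3 strains was the second tag of POL2 on array 2, at -0.67.

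For the clamp, POL30, which encodes PCNA, had the lowest mean of its group at -1.40 ± 0.95. The first tag gave -3.97 on array 1 and -0.96 on array 2, and the second -0.17 and -0.50, so that array 1 set most of the value. The clamp loader strains ran from RFC5 (-0.86 ± 0.22) to RFC1 (0.41 ± 0.16). RFC5, the neighbour of POL30 in the order of locus tags, had all 4 values below 0, at -1.08 and -0.86 on the first tag and -0.96 and -0.56 on the second, and was the 1 strain of the 43 with 2 features per block. RFC1, the large loader subunit, had all 4 values above 0, at 0.11 and 0.13 on the first tag and 0.47 and 0.91 on the second. RFC3 differed most between the arrays, with a first tag of -2.99 on array 1 and 1.91 on array 2. RFC2 (-0.16 ± 0.71) and RFC4 (0.10 ± 0.57) had strain values of opposite sign on the 2 arrays.

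The 3 RPA strains, whose missing protein coats the single-stranded DNA that recruits Lcd1 with Mec1, were all at least 2-fold lower on the first tag of both arrays. So were 5.07% of all strains and 25.5% of 110 essential strains with no part in replication. RFA1, the large subunit, read -3.46 and -1.03 on the first tag but 1.22 and 0.71 on the second, a mean of -0.64 ± 0.68. RFA2 read -2.18 and -1.09 on the first tag and 0.01 and -0.49 on the second, a mean of -0.94 ± 0.21. RFA3 had all 4 values below 0, at -2.46 and -1.47 on the first tag and -0.39 and -0.30 on the second, a mean of -1.16 ± 0.38. The median of the 3 strain means, -0.94, was the lowest of the 11 role groups, which hold 2 to 6 strains each. By the strain value the order differed between the arrays. On array 1 the MCM ring had a lower median, -1.22 beside -1.12 for RPA, and on array 2 RPA was lowest at -0.79. The order of the groups was not tested.

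The last step of lagging-strand synthesis gave opposite means. CDC9, the DNA ligase, read -0.68 and -1.74 on the first tag and -0.71 and -0.03 on the second, a mean of -0.79 ± 0.13. DNA2, the nuclease and helicase that cuts long flaps, read -1.57 and -1.27 on the first tag and 2.30 and 2.24 on the second. Its mean of 0.43 ± 0.09 had a small spread between the arrays, although the first tag minus the second was -3.87 on array 1 and -3.51 on array 2.

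The tags of 1 strain thus often differed by more than the arrays did. The median absolute gap between first and second tag was 0.85 on array 1 and 1.17 on array 2 in the 43 strains, beside 0.38 and 0.34 in all strains. The median absolute gap between the arrays was 0.51 for the first tag and 0.54 for the second, beside 0.27 and 0.23 in all strains. In 10 of the 43 strains (23.3%) the tags had opposite signs on both arrays, near the 19.3% of all strains. Among 110 essential strains with no part in replication the share was 30%. Across the 42 strains other than SLD3, which share pools and arrays, Pearson's r between arrays was 0.40 for the first tag and 0.26 for the second. Between the first and the second tag it was -0.13 on array 1 and 0.05 on array 2.

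**Figure D3:**
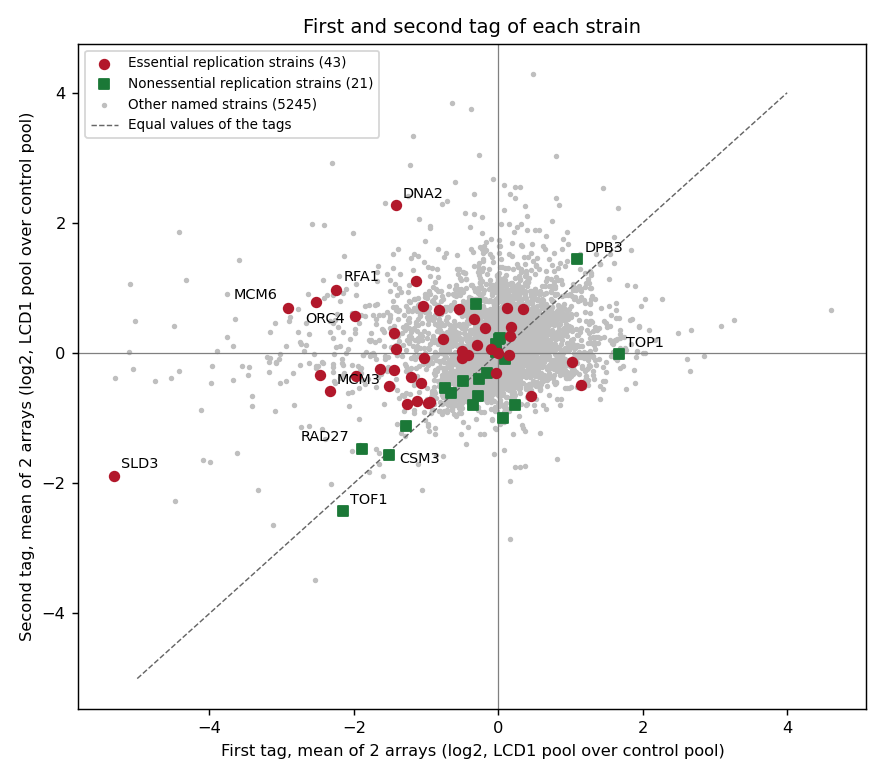
Each point is a strain, with its first tag on the x axis and its second tag on the y axis, both as the mean log2 ratio, LCD1 over control, of 2 arrays. Red circles are the 43 essential replication strains, green squares 21 nonessential replication strains and grey points the other named strains, and the dashed line marks equal tags. DNA2 lies at -1.42 and 2.27 and SLD3 at -5.32 and -1.88, both far above the dashed line. TOF1, at -2.16 and -2.42, lies next to the line and has 12 features, beside 2 each for SLD3 and DNA2.

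Strains without 21 nonessential replication genes, which can grow as haploids, had a smaller median gap between tags. It was 0.35 on array 1 and 0.31 on array 2, and 0.23 on each array for the 13 of them with 1 feature per block, a subset chosen after the values were seen. Among all 4439 named strains with 1 feature per block, the gaps were 0.39 and 0.35. The list had a median strain mean of -0.33. TOF1, which encodes a fork protection factor, read -2.21 and -2.10 on the first tag and -2.43 and -2.42 on the second. The strain without RAD27, the flap endonuclease that works beside Dna2, read -2.04 and -1.75 on the first tag and -1.59 and -1.35 on the second. DPB3, a polymerase epsilon subunit like Dpb2 but not essential, read 1.11 and 1.08 on the first tag and 1.47 and 1.42 on the second. Other strains of the list, chosen after their values were seen, had unequal tags. TOP1, a topoisomerase gene, read 1.78 and 1.55 on the first tag and -0.05 and 0.02 on the second. MRC1, a checkpoint mediator gene, read 0.61 and -0.15 on the first tag and -0.99 and -0.61 on the second, and the helicase gene PIF1 read -0.34 and -0.29 against 1.11 and 0.39. TOP1 and PIF1 also had 12 features each, and MRC1 had 14. By the strain value 4 of the 21 were at least 2-fold lower on both arrays, beside 1.82% of all strains, and 1, DPB3, was higher, beside 0.695%. The 4 were TOF1 (-2.29 ± 0.04), RAD27 (-1.68 ± 0.19), CSM3 (-1.54 ± 0.33), which encodes the partner of Tof1, and the fork scaffold gene CTF4 (-1.20 ± 0.05). By limma 0 passed after adjustment, as did 0% of all strains. At an unadjusted p under 0.05 it gave 9 lower, beside 10.8% of all strains, and 2 higher, beside 11.6%. The limma fit of 4 tag values, whose p-values are too small, called 5 lower, beside 4.68% of all strains, and 1 higher, beside 4.39%.

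A low first tag was also seen in essential strains with no part in replication. Of 110 such strains, without subunits of RNA polymerases, the proteasome, the CCT chaperonin and the exosome, tRNA synthetases or SEC secretory proteins (RRP40 of the list was not matched), 28 (25.5%) had a first tag at least 2-fold lower on both arrays, and 0 had such a second tag. The shares of all strains were 5.07% for the first tag and 0.563% for the second. The first-tag medians of this list were -0.36 on array 1 and -0.61 on array 2, beside -1.06 and -0.86 for the 43 replication strains, and its second-tag medians were 0.32 and 0.07, beside -0.04 and 0.03. The median gap between tags was 1.18 on array 1 and 1.02 on array 2. By the strain value 11 of the 110 were at least 2-fold lower on both arrays, beside 1.82% of all strains, and 0 higher, beside 0.695%. The lowest were the proteasome strain PRE6 (-2.59 ± 0.49), the lipid transfer strain SEC14 (-2.35 ± 0.97) and the RNA polymerase strain RPB10 (-2.11 ± 0.29). The others were RRP46, SEC2, PRE7, RPT1, ILS1, THS1, SEC6 and GLN4, with means from -1.93 to -1.16. All 4 tag values were at least 2-fold lower in 0 of the 110. SLD3 had this among the 43, and TOF1, CSM3 and RAD27 among the nonessential replication strains. In all, 20 of the 5325 named strains (0.376%) had it, MEC1, PCF11, RAD3 and RRP12 among them, so it was not particular to SLD3. The differences between these lists were not tested.

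**Figure D4:**
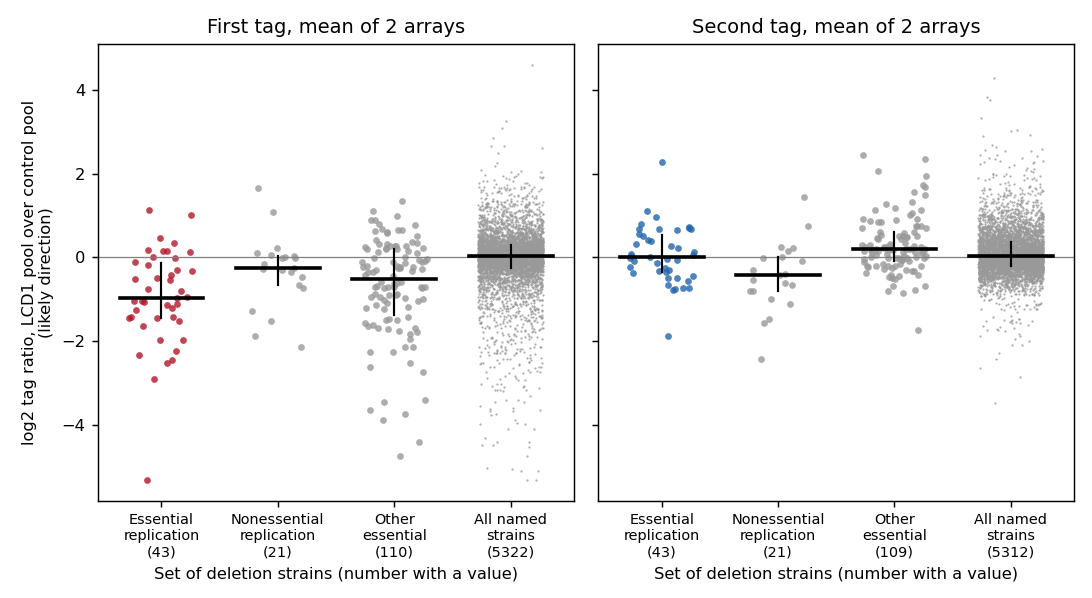
Points are strains, with the first tag in the left panel and the second in the right; the y axis gives the mean log2 ratio of 2 arrays, LCD1 over control, in its likely direction. Horizontal bars are medians and vertical bars run between the quartiles. The first-tag medians are -0.97 for the 43 essential replication strains, -0.27 for nonessential replication strains, -0.51 for other essential strains and 0.02 for all named strains, and the second-tag medians 0.0050, -0.43, 0.19 and 0.04.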

How the data were processed

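Per the labels, strain tags were amplified from genomic DNA of both haploid pools, labelled with Cy5 (control plasmid) and Cy3 (LCD1), hybridised together and read with GenePix 5.1, although the molecule field reads total RNA. The deposited table holds 1 log2 ratio per feature and array: on a linear scale all were whole hundredths within 0.001. How they were normalized and which dye is the numerator is not stated, and the deposited medians were -0.136 on each array. No intensities were at hand, so no filter on dim features was possible.

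The platform annotation named 18794 of 22575 features, and 18786 matched the yeast gene table of assembly R64. Feature numbers up to 10971 form the first tag block and higher ones the second, and which is upstream is not stated. Signs were turned, features averaged by gene and block, blocks centred on their median and tags averaged. The test of a strain value against 0 used limma 3.58.1 (R 4.3.3, lmFit and eBayes, two-sided, Benjamini-Hochberg adjustment over 5325 strains, threshold 0.05), with 1 degree of freedom from the arrays and 2.42 from the prior. The fit was also run on simulated strain values with known changes and independent normal errors. These held no separate tags, so that run could not check how unequal tags affect the fit. With 2 arrays an exact two-sided test cannot go below p = 0.5. The size rule asks for 2-fold on both arrays, a log2 value of 1.

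The members and lists were chosen with earlier results of these data known, and lists got no test. Every member could be named. The rule asked for the tag values of LCD1, SLD3, its partners, members past the size rule or with a mean past 1, and the lowest and highest of each role group, and for the other lists named SLD7 and those past the size rule. For MCM4, TAH11 and DPB2 the range of the tag values is given instead. Values of further strains, such as ORC2, POL12, PRI2, RFA2 and RFC5, were added after they were seen. Essential genes were taken as such from general knowledge. The sources name no genome build for the arrays, so no positions are given, and no tag sequences were used here.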

Additional observations from a re-analysis of the deposited data

How the results depend on the processing

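SLD3 stayed lowest of the 43 strains and at least 2-fold lower in every alternative run, and limma called 0 members in every alternative fit but that of the 4 tag values. Without centring, with centring on all features, with the median of features and with scale normalization, SLD3 and MCM3 remained the 2 members past the size rule. The median of the members (main value -0.27) was -0.15 without centring and -0.28 to -0.25 in the other 3. With the first tag alone that median was -0.97, 15 members were 2-fold lower and SLD3 lay at -4.89 relative to its partners (main value -3.37). With the second tag alone the median was 0.0050, 1 member was lower and 1 higher, and SLD3 lay at -1.85. Without features whose deposited ratio was outside 0.1 to 10 SLD3 lay at -1.77. A 1.5-fold threshold gave 12 lower members (4.34% of all strains), and the limma fit of 4 tag values called 3 lower. Leaving out either array gave medians from -0.62 to -0.35, 4 to 13 lower members, 0 to 2 higher members and SLD3 at -3.69 to -2.82. The 13 were seen on array 1 alone (3.47% of all strains) and the 4 on array 2 alone (2.82%). Each ratio already pairs both pools of 1 array, and no further pairing block could be fitted. Signal over background is unknown, which limits the reading of every value of an essential strain.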
